A study of Rattus norvegicus with 24 samples.

Results

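Amino acid transporter genes of 7 solute carrier families were examined in lung tissue of mechanically ventilated rats. The members were all array features whose annotated symbol begins with Slc1a, Slc3a, Slc6a, Slc7a, Slc36a, Slc38a or Slc43a and a number, so they were chosen by name and not by any measured value. There were 60 such members among 19239 features, of which 16592 carried a gene symbol. The Slc1 family had 7 members, Slc3 had 2, Slc6 had 17, Slc7 had 16, Slc36 had 4, Slc38 had 11 and Slc43 had 3. The rule takes in genes that do not carry amino acids. Slc7a6os is an opposite-strand neighbour gene of Slc7a6 and no transporter, Slc6a2, Slc6a3 and Slc6a4 carry monoamines, Slc6a8 carries creatine, and the human counterpart of Slc43a3 carries purine nucleobases.

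Adult male Wistar rats were ventilated for 6 h under ketamine anaesthesia, and 1 array was run on lung RNA of each of 24 rats in 4 groups of 6. Rats with no brain damage (NBD) or with massive brain damage from an inflated epidural balloon (BD) received either a low tidal volume of 6 mL/kg with PEEP set at minimal elastance after recruitment (LVT/OLPEEP, the best PEEP group) or a high tidal volume of 12 mL/kg with low PEEP (HVT/LPEEP, the HT group). NBD rats had no trepanation, no group was left unventilated, and 2 rats of the BD HVT/LPEEP arrays, not identified in the labels, did not survive to the end. The study asked whether the ventilation setting alters the lung response to brain damage. The values are log2 intensities, so a difference of 1 is 2-fold, and a member was called where the adjusted p of limma's moderated test (Benjamini-Hochberg over all 19239 features) was under 0.05.

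Amino acid transporters work in families by structure and by the ion or partner that drives them. Slc1 members take up glutamate or small neutral amino acids with sodium, and Slc6 members couple amino acids, creatine, taurine or monoamines to sodium and chloride. Slc7 members are cationic carriers or light chains that need an Slc3 heavy chain to reach the membrane. Some Slc36 members run with protons, Slc38 members move glutamine and other neutral amino acids, and Slc43 members facilitate neutral amino acids. In stressed cells several of them are targets of the transcription factors ATF4 and NRF2, which respond to amino acid shortage and to oxidants.

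The promoters of 3 members called in the ventilation comparison are shown because 2 of them hold a motif searched for and the third, of the member with the largest rise, holds none. Each is the 250 bases before the annotated start of the gene, 5′ to 3′ on the strand of the gene, from RefSeq on build GRCr8. Capitals mark matches to TGATGNAA, the C/EBP-ATF element that ATF4 can bind, or to TGACNNNGC, the core of the antioxidant element that NRF2 can bind, on either strand.
Slc7a11 (chr2:136668265-136668514, minus strand): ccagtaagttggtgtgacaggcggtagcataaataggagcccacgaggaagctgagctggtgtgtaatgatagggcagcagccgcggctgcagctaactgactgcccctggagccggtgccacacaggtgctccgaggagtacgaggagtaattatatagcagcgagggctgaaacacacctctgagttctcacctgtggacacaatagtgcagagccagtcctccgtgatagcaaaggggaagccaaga
Slc7a1 (chr12:11664238-11664487, plus strand): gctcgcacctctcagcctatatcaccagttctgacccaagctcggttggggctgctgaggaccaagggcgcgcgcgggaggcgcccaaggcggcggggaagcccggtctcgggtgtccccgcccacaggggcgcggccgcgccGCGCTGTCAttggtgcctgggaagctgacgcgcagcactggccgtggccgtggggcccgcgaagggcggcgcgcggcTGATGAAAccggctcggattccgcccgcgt
Slc6a6 (chr4:125752252-125752501, plus strand): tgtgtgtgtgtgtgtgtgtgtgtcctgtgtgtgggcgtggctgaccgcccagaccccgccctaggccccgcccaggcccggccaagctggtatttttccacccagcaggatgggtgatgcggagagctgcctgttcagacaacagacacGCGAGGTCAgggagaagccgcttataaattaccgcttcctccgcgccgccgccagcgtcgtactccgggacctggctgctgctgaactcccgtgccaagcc

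In Slc7a1 the C/EBP-ATF match TGATGAAA starts at position -30 and the antioxidant match GCGCTGTCA, on the other strand, at -107, counting the base before the start as -1. In Slc6a6 the antioxidant match GCGAGGTCA, also on the other strand, starts at -101. The matches shown do not overlap each other. Windows of 250 bases before and 50 after the start were found for 46 of the 60 members, in 50 windows. TGATGNAA was found in 3 member windows, those of Slc1a4, Slc38a1 and Slc7a1, and in 3.98% of all 33469 promoter windows. TGACNNNGC was found in 9 member windows, among them Slc3a2, Slc36a1, Slc38a2 and Slc7a7, and in 12.1% of all windows. The full glucocorticoid element was in 0 member windows and in 0.439% of all. These are matches of letters and not measured sites.

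The lung label was checked first. The surfactant gene Sftpc was between 14.24 and 14.41 and the alveolar type I gene Ager between 13.29 and 13.60 over the 24 rats, at the 100th and 99.9th percentiles of all features by mean. All 60 members were found by gene identifier in the current rat gene table, and 59 kept their symbol. Slc6a20 is now listed there as Slc6a20a. By mean level 24 members lay under the 40th percentile of all features, among them the brain and retina glutamate carriers Slc1a6 and Slc1a7 and the renal Slc3a1, Slc6a18, Slc6a19 and Slc7a9. No measure of signal over background was used here, so a low member cannot be separated from an unexpressed one. Of the 19 members called in any comparison, 16 lay at or above that percentile, and Slc1a7, Slc6a16 and Slc7a15 lay below it. The other 41 members were not called in any of the 5 comparisons. The share of all features called in any comparison was not computed, so these counts describe the members only.

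The libraries differed beyond their groups. NBD HVT/LPEEP rat 12 and BD LVT/OLPEEP rat 16 correlated least with their own groups, with mean correlations across features of 0.951 and 0.955. Rat 12 had the highest value of its group in 28 of 60 members and the lowest in 9, and rat 16 had the lowest value of its group in 22. The mean of 11 skeletal muscle markers, centred on all rats, was 3.27 in rat 16 and between -0.32 and 0.22 in the other rats. That of 7 cardiac muscle markers reached 2.58 in BD HVT/LPEEP rat 37 and 2.06 in NBD HVT/LPEEP rat 34. Its highest value was 1.33 in BD LVT/OLPEEP, in rat 20, and 0.78 in NBD LVT/OLPEEP, in rat 6. The cardiac medians of the groups ran from -0.592 to -0.105. Rat 12 was the highest of its group for macrophage (0.61), neutrophil (0.32), T, B and NK cell (0.36), platelet (0.75) and red cell (0.46) markers. The medians of its group were 0.16, -0.33, -0.20, -0.14 and 0.15. For alveolar type I markers rat 12 was the lowest of its group, at -0.51, and for the other marker lists it was at neither end. Slc38a4, a neutral amino acid carrier of liver and muscle, was 9.73 in rat 16 against a group median of 7.96, and Slc38a3 and Slc6a19 were also highest there, at 9.11 and 8.85. RNA came from whole lung, so fewer cells of a type and less RNA per cell cannot be told apart. Nothing in the labels marks a batch.

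**Figure D1:**
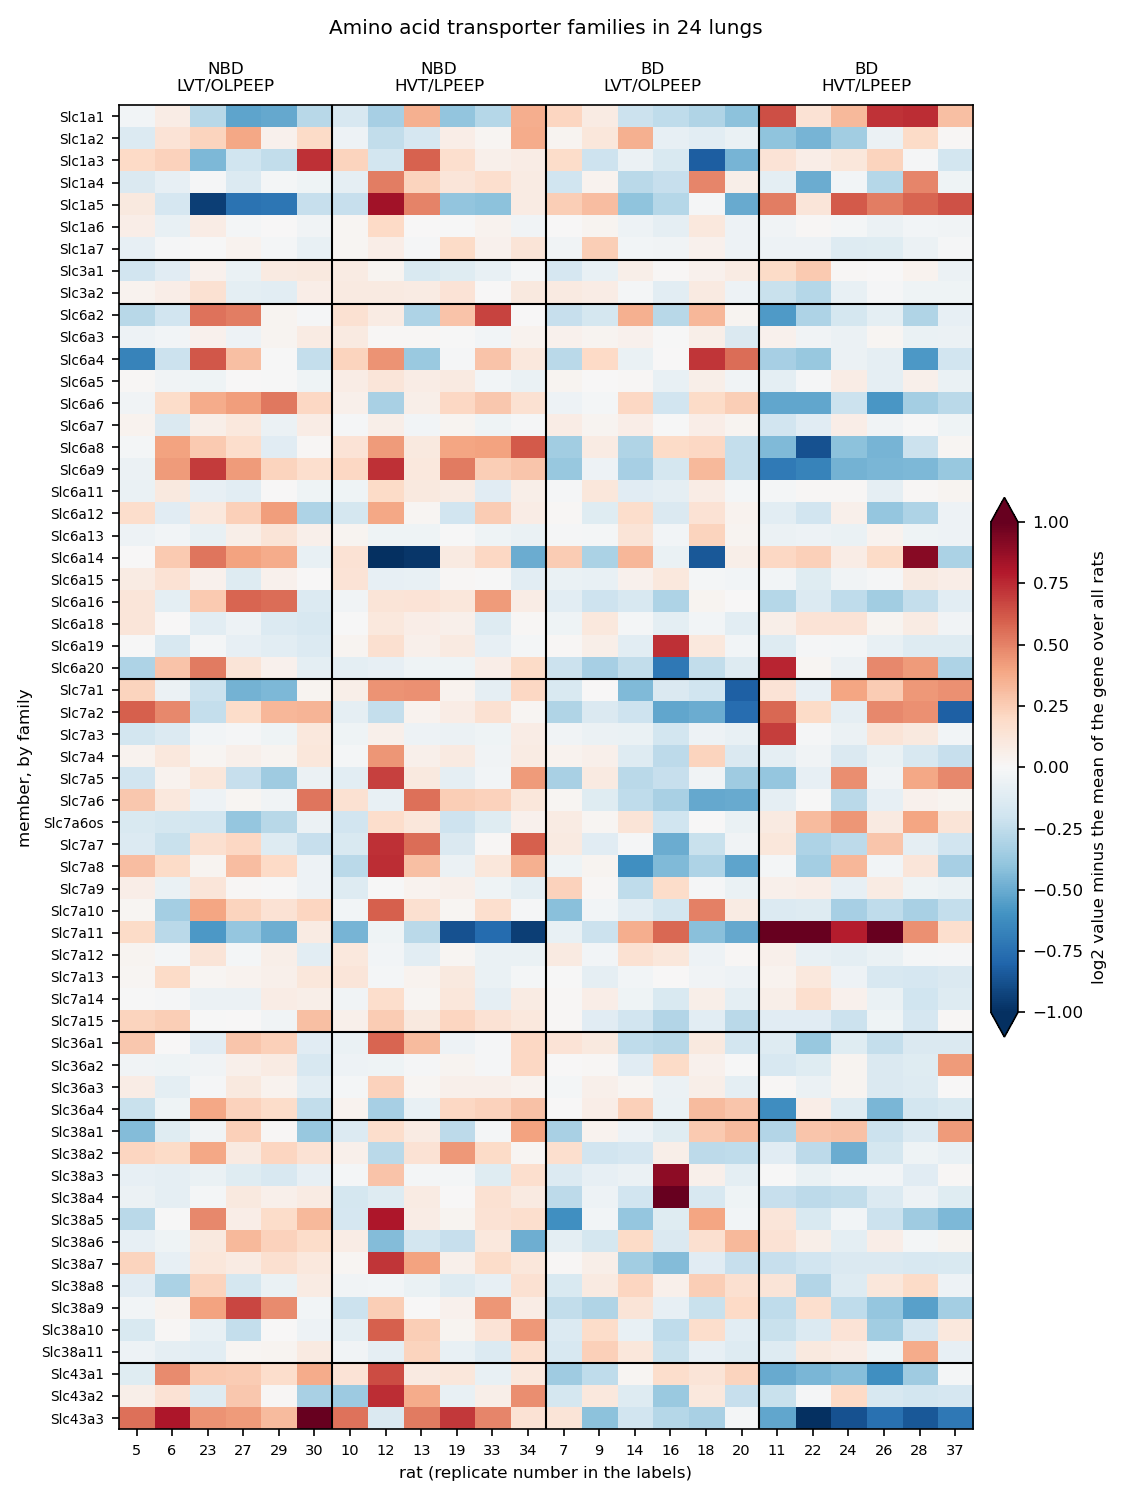
Log2 value of each of the 60 members (rows, by family) in each of the 24 rats (columns, by group), minus the mean of that member over all rats, with colours ending at -1 and 1. Slc7a11 is high and Slc43a3 low in the BD HVT/LPEEP rats, rat 12 stands out in its group in many rows, and Slc38a3, Slc38a4 and Slc6a19 are high in rat 16.

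HVT/LPEEP was first compared to LVT/OLPEEP in rats with brain damage. Of 60 members 6 were called. The cystine carrier Slc7a11, the glutamate carrier Slc1a1, the cationic amino acid carrier Slc7a1 and the proline carrier Slc6a20 were higher under HVT/LPEEP, and the taurine carrier Slc6a6 and the nucleobase carrier Slc43a3 were lower. The 4 higher members stand beside 2.85% of all features called higher and the 2 lower members beside 2.82% called lower. In both directions together 10% of the members and 5.67% of all features were called, and the median difference was -0.04 over members and -0.01 over all features.

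Slc7a11 is the light chain of the cystine-glutamate exchanger, which supplies cysteine for glutathione. Its lowest, median and highest log2 values were 9.52, 9.77 and 10.29 in NBD LVT/OLPEEP, 9.16, 9.48 and 10.05 in NBD HVT/LPEEP, 9.59, 9.96 and 10.67 in BD LVT/OLPEEP, and 10.27, 10.99 and 11.58 in BD HVT/LPEEP. The BD HVT/LPEEP rats were the highest as a group, and 4 of the 6 exceeded all LVT/OLPEEP rats with brain damage. The difference was 0.89 ± 0.22 (SE), a 1.86-fold higher level (adjusted p = 0.0199). The call was lost without BD LVT/OLPEEP rat 20 (difference 0.80, adjusted p = 0.0553) or rat 18 (0.82, 0.0530), and when only the 12 BD arrays were fitted. It was kept in 6 of 15 fits without a pair of BD HVT/LPEEP rats, with adjusted p up to 0.127.

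Slc1a1 takes up glutamate, aspartate and cysteine. Its values were 10.49, 10.74 and 11.10 in NBD LVT/OLPEEP, 10.62, 10.80 and 11.38 in NBD HVT/LPEEP, 10.61, 10.78 and 11.24 in BD LVT/OLPEEP, and 11.16, 11.50 and 11.76 in BD HVT/LPEEP. The other 3 groups covered nearly the same range, and 5 of the 6 BD HVT/LPEEP rats exceeded all BD LVT/OLPEEP rats. The difference was 0.62 ± 0.15 (SE, adjusted p = 0.0182), and without rat 20 it was 0.57 (adjusted p = 0.0519). The other glutamate carriers of the family, Slc1a2 and Slc1a3, differed by -0.22 and 0.31 and were not called.

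Slc7a1 is the widely expressed carrier of arginine, lysine and ornithine. It measured 10.27, 10.60 and 10.96 in NBD LVT/OLPEEP, 10.65, 10.87 and 11.19 in NBD HVT/LPEEP, 9.92, 10.56 and 10.74 in BD LVT/OLPEEP, and 10.66, 11.06 and 11.19 in BD HVT/LPEEP. Both HVT/LPEEP groups had the higher medians. In BD 5 of 6 HVT/LPEEP rats lay above every LVT/OLPEEP rat, and the difference was 0.56 ± 0.14 (SE, adjusted p = 0.0215). Without rat 20, which was the lowest at 9.92, the difference was 0.45 (adjusted p = 0.0574), and without BD HVT/LPEEP rat 28 it was 0.52 (adjusted p = 0.0502).

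Slc6a20 carries proline and other imino acids. It measured 10.20, 10.60 and 11.03 in NBD LVT/OLPEEP, 10.41, 10.47 and 10.70 in NBD HVT/LPEEP, 9.80, 10.26 and 10.38 in BD LVT/OLPEEP, and 10.20, 10.73 and 11.28 in BD HVT/LPEEP. The BD LVT/OLPEEP rats were low and 5 of the 6 BD HVT/LPEEP rats were above all of them. The difference was 0.53 ± 0.15 (SE, adjusted p = 0.0393). This call was the least stable of the 6. It was lost without any 1 of 8 rats, BD HVT/LPEEP rats 11, 26 and 28 and BD LVT/OLPEEP rats 9, 14, 16, 18 and 20, with adjusted p up to 0.0952, and when only the 12 BD arrays were fitted. Rat 16 was itself far below its group at 9.80.

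Slc6a6 takes up taurine, an osmolyte. Its values were 12.01, 12.33 and 12.57 in NBD LVT/OLPEEP, 11.72, 12.15 and 12.31 in NBD HVT/LPEEP, 11.85, 12.13 and 12.29 in BD LVT/OLPEEP, and 11.46, 11.62 and 11.83 in BD HVT/LPEEP. The BD groups did not overlap. The difference was -0.47 ± 0.10 (SE, adjusted p = 0.0109). Slc43a3 measured 12.81, 12.99 and 13.49 in NBD LVT/OLPEEP, 12.35, 13.00 and 13.20 in NBD HVT/LPEEP, 12.09, 12.26 and 12.62 in BD LVT/OLPEEP, and 11.49, 11.70 and 11.98 in BD HVT/LPEEP. The values stepped down from the NBD groups to BD LVT/OLPEEP and again to BD HVT/LPEEP, and the BD groups did not overlap. The ventilation difference was -0.60 ± 0.13 (SE, adjusted p = 0.0118). Both calls were kept when any 1 of the 24 rats was left out, with adjusted p up to 0.0321. With a pair of BD HVT/LPEEP rats left out, Slc6a6 was called in 9 and Slc43a3 in 10 of 15 fits, with adjusted p up to 0.0853 and 0.0820, and Slc1a1, Slc7a1 and Slc6a20 in 6, 5 and 6.

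**Figure D2:**
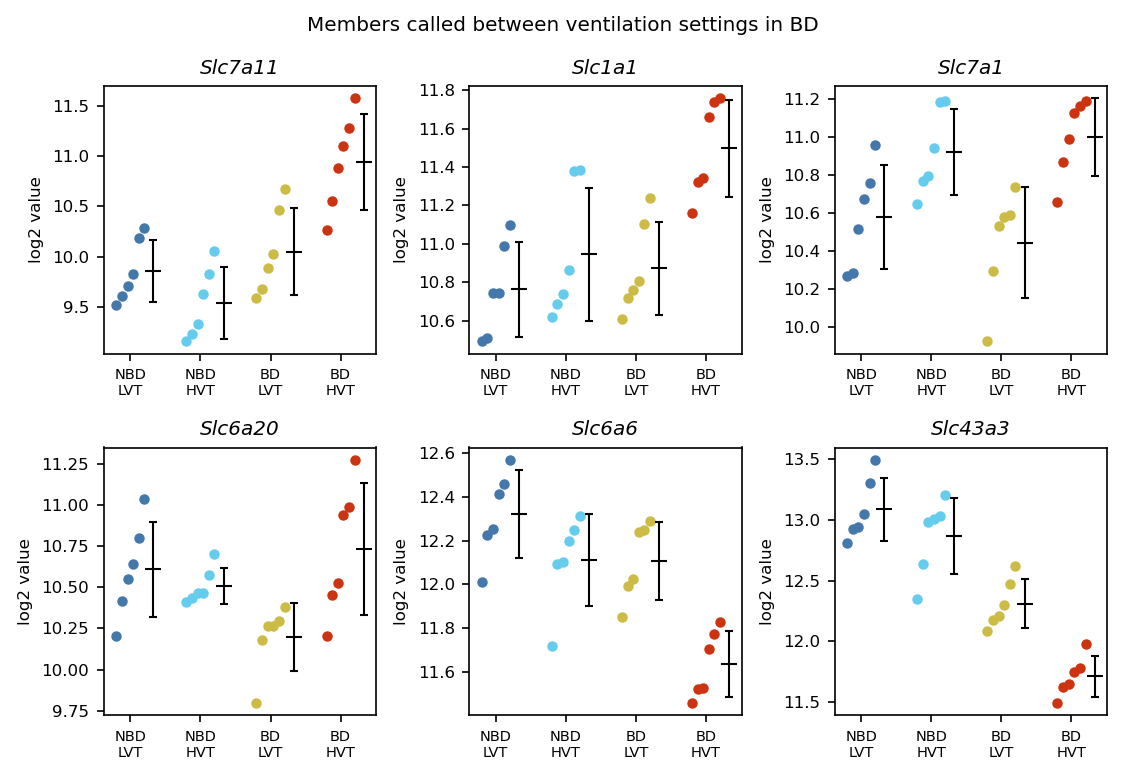
Log2 values (vertical axes, ranges differ between panels) of the 6 members called between ventilation settings in BD, with 1 point per rat ordered by value, and the mean and SD of 6 rats per group beside them. Slc6a6 and Slc43a3 of the BD HVT/LPEEP rats lie below all BD LVT/OLPEEP rats, and the 4 higher members overlap between the BD groups.

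By family the Slc7 members had a median ventilation difference of 0.13 in BD, the Slc6 members -0.10 and the 3 Slc43 members -0.38. Slc7 differences ran from -0.21 to 0.89 with 2 of 16 called, and Slc6 differences from -0.47 to 0.53 with 2 of 17 called. No member of Slc3, Slc36 or Slc38 was called. Over all features 5.67% were called, with a median difference of -0.01, and at that share families of this size hold few calls. The Slc3 member with the smallest p was Slc3a2, the heavy chain that partners Slc7a5, Slc7a7, Slc7a8 and Slc7a11. It measured 12.85, 13.01 and 13.11 in NBD LVT/OLPEEP, 12.97, 13.05 and 13.09 in NBD HVT/LPEEP, 12.85, 12.99 and 13.05 in BD LVT/OLPEEP, and 12.68, 12.90 and 12.94 in BD HVT/LPEEP. The values were high and close together in all groups, and the ventilation difference in BD was -0.13 (adjusted p = 0.175).

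In Slc36 the smallest p was that of Slc36a4, a carrier of proline and tryptophan. It measured 10.09, 10.41 and 10.73 in NBD LVT/OLPEEP, 10.01, 10.46 and 10.63 in NBD HVT/LPEEP, 10.27, 10.49 and 10.66 in BD LVT/OLPEEP, and 9.72, 10.17 and 10.41 in BD HVT/LPEEP. The BD HVT/LPEEP median was the lowest and the other 3 lay close together. The difference in BD was -0.39 (adjusted p = 0.0744). The 11 Slc38 members differed by -0.34 to 0.09. Slc38a4 had the smallest p of these with values of 7.98, 8.08 and 8.16 in NBD LVT/OLPEEP, 7.88, 8.10 and 8.22 in NBD HVT/LPEEP, 7.80, 7.96 and 9.73 in BD LVT/OLPEEP, and 7.80, 7.88 and 8.02 in BD HVT/LPEEP, rat 16 holding the highest, and differed by -0.34 (adjusted p = 0.383). The glutamine carrier Slc38a2, which amino acid shortage is known to induce, differed by -0.09 (adjusted p = 0.675).

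Several members missed the threshold in BD. Slc1a5, the exchanger of glutamine for other neutral amino acids, differed by 0.60 (adjusted p = 0.0893), and Slc7a2, the inducible cationic carrier, by 0.54 (adjusted p = 0.0794). Slc7a5, the light chain that carries leucine, differed by 0.32 (adjusted p = 0.213). The glycine carrier Slc6a9 and the branched-chain carrier Slc43a1 both differed by -0.38, with adjusted p of 0.0780 and 0.0711. These values do not show that the members were alike in both settings. Without rat 12, an NBD rat that enters only through the shared estimate of spread, 11 members were called in BD. Slc1a5, Slc36a4, Slc43a1, Slc6a9 and Slc7a6os were added to the 6, and all features called rose from 1091 to 1668. Without rat 20 only Slc6a6 and Slc43a3 were called, and all features called fell to 602.

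In rats without brain damage 0 of 60 members were called between ventilation settings, as were 0 of all 19239 features (0%). At an unadjusted p under 0.05 there were 7 members (11.7%) beside 16.3% of all features. The 7 had differences of 0.52 for Slc1a5, 0.34 for Slc7a1, 0.32 for Slc7a7, 0.31 for Slc38a10, 0.17 for Slc7a6os, -0.31 for Slc38a6 and -0.62 for Slc6a14. Their adjusted p ran from 0.260 to 0.293.

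Slc1a5 in the 4 groups measured 9.58, 10.04 and 10.62 in NBD LVT/OLPEEP, 10.11, 10.44 and 11.36 in NBD HVT/LPEEP, 10.01, 10.37 and 10.83 in BD LVT/OLPEEP, and 10.65, 11.07 and 11.16 in BD HVT/LPEEP. It was the member of Slc1 with the smallest p in NBD, and rat 12 held the top value. Slc6a14, a broad carrier of neutral and cationic amino acids of airway epithelium, measured 11.11, 11.49 and 11.72 in NBD LVT/OLPEEP, 9.98, 10.97 and 11.38 in NBD HVT/LPEEP, 10.33, 11.17 and 11.51 in BD LVT/OLPEEP, and 10.86, 11.38 and 12.09 in BD HVT/LPEEP. Its NBD groups overlapped, and the lowest value was that of rat 12. Slc38a6 measured 9.06, 9.29 and 9.47 in NBD LVT/OLPEEP, 8.66, 8.94 and 9.25 in NBD HVT/LPEEP, 8.97, 9.18 and 9.47 in BD LVT/OLPEEP, and 9.04, 9.19 and 9.29 in BD HVT/LPEEP, with the low median in NBD HVT/LPEEP alone.

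In the other families, Slc7a1, smallest in p within Slc7 in NBD, had the values given above. Slc3a2 differed by 0.07 (adjusted p = 0.544). Slc36a3, of low level here, measured 7.86, 7.97 and 8.06 in NBD LVT/OLPEEP and 7.94, 8.01 and 8.20 in NBD HVT/LPEEP. It measured 7.87, 7.96 and 8.02 in BD LVT/OLPEEP and 7.82, 7.94 and 7.99 in BD HVT/LPEEP. Its NBD difference was 0.06 (adjusted p = 0.520). The NBD difference of Slc43a3 was -0.21 (adjusted p = 0.419).

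The difference between the 2 ventilation effects was tested directly. It was called for 0 of 60 members and for 0.0104% of all features. At an unadjusted p under 0.05 there were 12 members (20%), of which 4 were positive and 8 negative, beside 13.7% of all features. Slc7a11 had the largest value, 1.21 ± 0.31 (SE, adjusted p = 0.120), with ventilation differences of 0.89 in BD and -0.32 in NBD. Slc6a14 followed with 0.94 (adjusted p = 0.237) and Slc7a2 with 0.83 (adjusted p = 0.172). Slc7a2 measured 11.15, 11.72 and 11.98 in NBD LVT/OLPEEP, 11.15, 11.42 and 11.54 in NBD HVT/LPEEP, 10.62, 10.99 and 11.24 in BD LVT/OLPEEP, and 10.57, 11.71 and 11.96 in BD HVT/LPEEP. Its BD LVT/OLPEEP rats were lowest as a group, and BD HVT/LPEEP rat 37, at 10.57, lay far below the median of its group. Without rat 37 the interaction was called for 2 members, Slc7a11 and Slc7a2, and all features called rose from 2 to 134. Slc6a6, Slc43a3, Slc1a1, Slc7a1 and Slc6a20 had interaction values of -0.26, -0.38, 0.44, 0.21 and 0.63 with adjusted p of 0.210 or more, so none of the 6 members called in BD was shown to respond differently in NBD.

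Brain damage was compared next. Under HVT/LPEEP 17 of 60 members were called between BD and NBD, 3 higher and 14 lower in BD. The 3 higher members stand beside 5.9% of all features called higher and the 14 lower ones beside 8.5% called lower. In all 28.3% of members and 14.4% of all features were called, with a median difference of -0.10 over members and -0.01 over all features. Called members came from all 7 families. This comparison shares its BD HVT/LPEEP rats with the ventilation comparison in BD, so the values of the members in both are not independent.

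Slc7a11 had the largest rise, 1.41 ± 0.22 (SE), or 2.65-fold (adjusted p = 0.000229), and every BD HVT/LPEEP rat lay above every NBD HVT/LPEEP rat. Slc1a1 was 0.55 ± 0.15 higher (SE, adjusted p = 0.0174), with 3 of 6 BD rats above all NBD rats. Slc7a6os, whose protein takes part in the nuclear import of RNA polymerase in yeast, was 0.28 higher (adjusted p = 0.0239). It measured 9.04, 9.25 and 9.37 in NBD LVT/OLPEEP, 9.22, 9.38 and 9.60 in NBD HVT/LPEEP, 9.22, 9.44 and 9.56 in BD LVT/OLPEEP, and 9.52, 9.65 and 9.87 in BD HVT/LPEEP. Its neighbour Slc7a6, a cationic and neutral amino acid exchanger, differed by -0.27 (adjusted p = 0.108), and the annotated genes do not overlap.

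Slc43a3 had the largest fall, -1.16 ± 0.13 (SE), which is 0.448 of the NBD level (adjusted p = 8.68e-06). Slc43a1, the branched-chain carrier LAT3, measured 8.72, 9.10 and 9.31 in NBD LVT/OLPEEP, 8.77, 8.95 and 9.49 in NBD HVT/LPEEP, 8.48, 8.92 and 9.07 in BD LVT/OLPEEP, and 8.23, 8.40 and 8.82 in BD HVT/LPEEP. In BD HVT/LPEEP 5 of 6 rats were below every NBD HVT/LPEEP rat, and the difference was -0.56 ± 0.12 (SE, adjusted p = 0.00393). Slc43a2, the third member, differed by -0.29 (adjusted p = 0.186).

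Of the Slc6 family 4 of 17 members were called lower, beside 8.5% of all features. Negative differences were found in 13 of the 17, and in 10422 of all 19239 features. Slc6a9, the glycine carrier GlyT1, measured 10.60, 10.98 and 11.35 in NBD LVT/OLPEEP, 10.76, 10.92 and 11.38 in NBD HVT/LPEEP, 10.28, 10.45 and 10.98 in BD LVT/OLPEEP, and 9.95, 10.19 and 10.28 in BD HVT/LPEEP. The BD HVT/LPEEP rats were narrowly spread below all 12 NBD rats, and the difference was -0.87 ± 0.13 (SE), 0.548 of the NBD level (adjusted p = 0.000109). Slc6a8, the creatine carrier, measured 11.03, 11.24 and 11.55 in NBD LVT/OLPEEP, 11.24, 11.54 and 11.76 in NBD HVT/LPEEP, 10.80, 11.07 and 11.35 in BD LVT/OLPEEP, and 10.27, 10.72 and 11.16 in BD HVT/LPEEP. BD and NBD did not overlap under HVT/LPEEP, and the difference was -0.74 ± 0.13 (SE, adjusted p = 0.000721).

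Slc6a6 differed by -0.48 ± 0.10 (SE, adjusted p = 0.00375), with 4 of 6 BD rats below all NBD rats and rat 12 the low NBD value. Slc6a16, an orphan member, measured 8.24, 8.57 and 8.96 in NBD LVT/OLPEEP, 8.34, 8.50 and 8.80 in NBD HVT/LPEEP, 8.07, 8.25 and 8.40 in BD LVT/OLPEEP, and 8.03, 8.13 and 8.27 in BD HVT/LPEEP and differed by -0.37 ± 0.11 (SE, adjusted p = 0.0233). This call was lost without NBD HVT/LPEEP rat 33 (adjusted p = 0.0604) or BD HVT/LPEEP rat 26 (0.0529). The monoamine carriers were not called, with -0.40 for the noradrenaline carrier Slc6a2 and -0.38 for the serotonin carrier Slc6a4, which lung endothelium uses to clear serotonin.

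In Slc7 and Slc3 the called falls lay between -0.39 and -0.20. Slc7a15, a carrier of aromatic amino acids in rodents, differed by -0.25 ± 0.06 (SE, adjusted p = 0.0109), and the heavy chain Slc3a2 by -0.20 ± 0.05 (SE, adjusted p = 0.0170). In both, no BD HVT/LPEEP rat reached the lowest NBD HVT/LPEEP rat. Slc7a10, a carrier of small neutral amino acids and D-serine, measured 9.44, 9.96 and 10.17 in NBD LVT/OLPEEP, 9.75, 9.87 and 10.38 in NBD HVT/LPEEP, 9.36, 9.71 and 10.28 in BD LVT/OLPEEP, and 9.45, 9.53 and 9.65 in BD HVT/LPEEP and differed by -0.39 ± 0.13 (SE, adjusted p = 0.0490). Slc7a4, a relative of the cationic carriers, differed by -0.22 (adjusted p = 0.0472), and the glutamate carrier Slc1a7 by -0.14 (adjusted p = 0.0465). Those 3 calls were the most fragile. Slc7a10 was called in 5, Slc7a4 in 4 and Slc1a7 in 7 of the 24 fits with 1 rat left out, and without rat 12 the adjusted p of Slc7a10 was 0.109.

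Among the Slc38 and Slc36 members, Slc38a7, a lysosomal glutamine carrier, measured 9.39, 9.58 and 9.70 in NBD LVT/OLPEEP, 9.49, 9.62 and 10.19 in NBD HVT/LPEEP, 9.04, 9.30 and 9.53 in BD LVT/OLPEEP, and 9.24, 9.31 and 9.32 in BD HVT/LPEEP. All BD HVT/LPEEP rats lay between 9.24 and 9.32, under every NBD HVT/LPEEP rat, and the difference was -0.42 ± 0.10 (SE, adjusted p = 0.00569). Slc38a10 differed by -0.33 (adjusted p = 0.0401), and Slc36a1, the lysosomal proton-coupled carrier of glycine, alanine and proline, by -0.36 (adjusted p = 0.0296). Slc38a2 missed the threshold at -0.29 (adjusted p = 0.0532).

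The calls of Slc38a10 and Slc36a1 depended on single rats. Slc38a10 was lost without any 1 of NBD HVT/LPEEP rats 12, 13 and 34 and BD HVT/LPEEP rats 11, 22, 26 and 28, with adjusted p of 0.0652 to 0.100. Slc36a1 was lost without any 1 of NBD HVT/LPEEP rats 12, 13 and 34 and BD HVT/LPEEP rats 22 and 26, with adjusted p of 0.0563 to 0.0693. Slc7a6os was lost without any 1 of NBD HVT/LPEEP rats 10, 19 and 33 and BD HVT/LPEEP rats 24 and 28, with adjusted p of 0.0513 to 0.0616. Slc43a3, Slc6a9, Slc7a11, Slc6a8, Slc6a6, Slc43a1, Slc38a7, Slc7a15, Slc3a2 and Slc1a1 stayed called without any 1 rat. Without BD HVT/LPEEP rat 26 the count fell to 11, and all features called fell from 2771 to 2154. When only the 12 HVT/LPEEP arrays were fitted, Slc36a1, Slc38a10, Slc7a6os, Slc7a4 and Slc1a7 were not called.

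**Figure D3:**
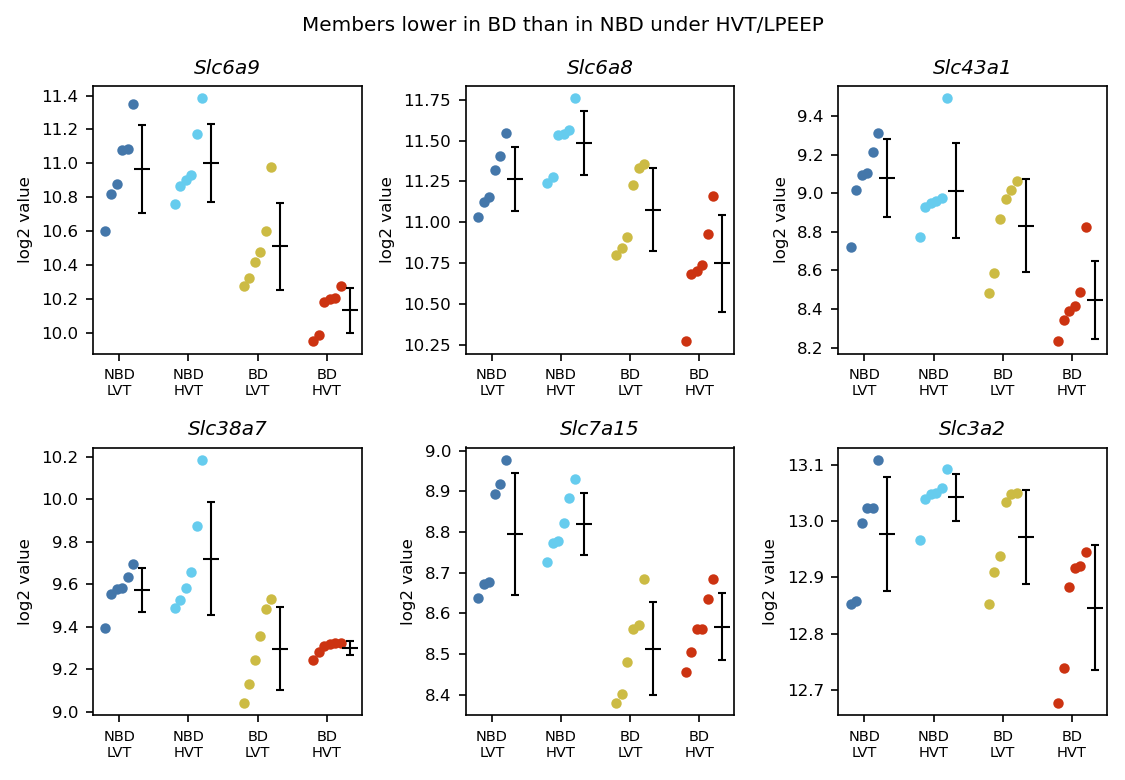
Log2 values (vertical axes, ranges differ between panels) of 6 members lower in BD than in NBD under HVT/LPEEP, with 1 point per rat ordered by value, and the mean and SD of 6 rats per group beside them. The BD HVT/LPEEP rats lie below the NBD HVT/LPEEP rats in each panel except for 1 rat of Slc43a1, and rat 12 is the top NBD HVT/LPEEP point of Slc6a9, Slc43a1, Slc38a7 and Slc7a15.

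Under LVT/OLPEEP 2 of 60 members were called between BD and NBD, both lower in BD, beside 0.53% of all features called lower and 0.208% called higher. Slc43a3 differed by -0.77 ± 0.13 (SE, adjusted p = 0.00687), and every BD rat lay below every NBD rat. Slc7a15 measured 8.64, 8.79 and 8.98 in NBD LVT/OLPEEP, 8.73, 8.80 and 8.93 in NBD HVT/LPEEP, 8.38, 8.52 and 8.68 in BD LVT/OLPEEP, and 8.46, 8.56 and 8.68 in BD HVT/LPEEP. It differed by -0.28 ± 0.06 (SE, adjusted p = 0.0400), with 5 of 6 BD rats below all NBD rats. The Slc43a3 call held without any 1 rat, and that of Slc7a15 was lost without any 1 of NBD LVT/OLPEEP rats 5, 6, 27 and 30 and BD LVT/OLPEEP rats 9, 14, 16, 18 and 20, with adjusted p of 0.0510 to 0.101, and when only the 12 LVT/OLPEEP arrays were fitted. Below the threshold Slc7a2 differed by -0.69 (adjusted p = 0.0808), the LAT2 light chain Slc7a8 by -0.48 (adjusted p = 0.146), Slc6a9 by -0.46 (adjusted p = 0.102) and Slc7a6 by -0.42 (adjusted p = 0.0747). Slc7a11 differed by 0.19 and Slc6a8 by -0.19 here, with adjusted p of 0.780 and 0.616.

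**Figure D4:**
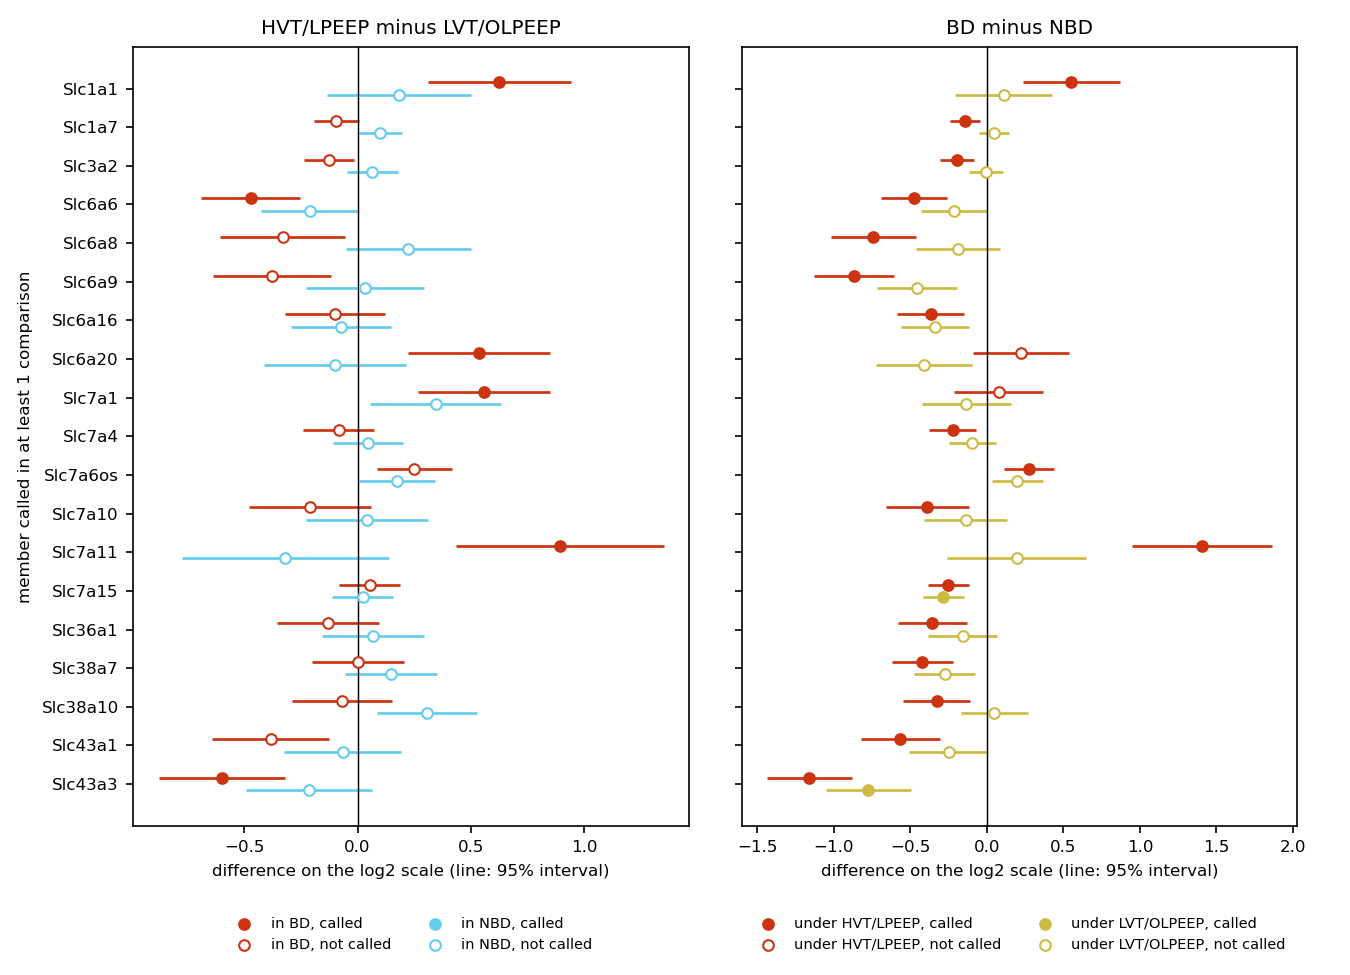
Differences on the log2 scale for the 19 members called in at least 1 comparison, HVT/LPEEP minus LVT/OLPEEP on the left and BD minus NBD on the right, with 95% intervals that are not adjusted for multiple tests. Filled points are called at an adjusted p under 0.05, and the largest differences of either sign are those of Slc7a11 and Slc43a3 between BD and NBD under HVT/LPEEP.

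Markers of some cell types also differed between groups. In BD HVT/LPEEP the mean of 8 alveolar type I markers, centred on all rats, ran from -0.33 to -0.17, against 0.02 to 0.25 in BD LVT/OLPEEP, -0.51 to 0.23 in NBD HVT/LPEEP and 0.05 to 0.30 in NBD LVT/OLPEEP. That of 8 alveolar type II markers ran from -0.32 to -0.04 in BD HVT/LPEEP and from -0.14 to 0.14 over the other groups, and that of 8 endothelial markers from -0.49 to 0.04 against -0.36 to 0.52. Under HVT/LPEEP 3 of 8 type I, 3 of 8 type II and 2 of 8 endothelial markers were called lower in BD. So were 2 of 8 macrophage and 2 of 8 fibroblast markers. Called higher were 3 of 9 neutrophil, 3 of 12 T, B and NK cell, 1 of 6 platelet and 1 of 8 fibroblast markers. Of all features 8.5% were called lower and 5.9% higher in this comparison. In the ventilation comparison in BD 1 type I, 2 type II and 1 endothelial marker were called lower, and 1 of 6 platelet markers higher. These stand beside 2.82% of all features called lower and 2.85% called higher. None of 8 macrophage markers was called higher in any comparison, and their mean in BD HVT/LPEEP had a median of -0.21. Between ventilation settings in BD 0 of 9 neutrophil and 0 of 12 T, B and NK cell markers were called. No comparison called any of 6 club and ciliated, 5 smooth muscle, 11 skeletal muscle, 7 cardiac muscle or 3 red cell markers. The part of the marker shifts in the falls of Slc43a3, Slc6a6, Slc6a8 and Slc6a9, or in the rises of Slc7a11 and Slc1a1, was not tested.

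Genes around the carriers were taken from lists of the amino acid pathways. The lists were chosen with earlier results of these data known, so a share above that of all features is not an independent result. Their counts are to be read beside the shares of all features, 5.9% higher and 8.5% lower in BD under HVT/LPEEP, 2.85% higher and 2.82% lower between ventilation settings in BD, and 0.208% higher and 0.53% lower in BD under LVT/OLPEEP. Of 13 genes of glutathione synthesis and recycling, 3 were higher and 3 lower in BD than in NBD under HVT/LPEEP (46.2%, beside 14.4% of all features), with a median difference of 0.08 beside -0.01. The thioredoxin reductase Txnrd1 was 0.78 higher, the glutamate-cysteine ligase modifier Gclm 0.69 and the NRF2 gene Nfe2l2 0.40, and these stand beside the rise of Slc7a11. The peptidases Dpep1 and Anpep were -0.61 and -0.42 and the oxoprolinase Oplah -0.32. Between ventilation settings in BD only Txnrd1 was called in this list, at 0.53 (adjusted p = 0.0256).

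Of 24 amino acid carriers outside the 7 families, 6 were lower and 2 higher in BD under HVT/LPEEP (33.3%, beside 14.4% of all features), with a median difference of -0.04 beside -0.01. Ctns, which exports cystine from lysosomes, was -0.81 (adjusted p = 1.5e-06), Slc15a2, a di- and tripeptide carrier, -1.03, Slc17a5, a lysosomal sialic acid carrier, -0.66 and Slc16a10, an aromatic amino acid carrier, -0.54. Those 4 were also called lower between ventilation settings in BD, at -0.40, -0.83, -0.46 and -0.38, while Slc25a13, the mitochondrial aspartate-glutamate carrier, was higher at 0.24. Under LVT/OLPEEP Ctns at -0.44 and Slc17a5 at -0.48 were called lower in BD.

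Of 20 enzymes of glutamine, arginine and branched-chain amino acids, 3 were higher between ventilation settings in BD and 0 lower (15%, beside 5.67% of all features), with a median difference of -0.02 beside -0.01. Arginase Arg1, which uses arginine, was 0.98 higher (adjusted p = 0.00344), Arg2 0.35 and the polyamine enzyme Odc1 0.42. A link to Slc7a1, which carries arginine, was not tested. In BD against NBD under HVT/LPEEP Arg1 was 1.11, the inducible nitric oxide synthase Nos2 1.55 and the branched-chain transaminase Bcat1 0.96 higher, while glutaminase Gls2 was -0.43 and Bckdk, a kinase of branched-chain breakdown, -0.39.

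Of 27 genes of the amino acid response, 4 were higher and 0 lower between ventilation settings in BD (14.8%, beside 5.67% of all features), with a median difference of 0.13 beside -0.01. These were Atf3 at 1.15, Ppp1r15a at 0.61, Ddit4 at 0.48 and Ddit3 at 0.27. Under HVT/LPEEP Ddit3 and Ppp1r15a were higher in BD, at 0.48 and 0.61, and asparagine synthetase Asns, Pycr1 of proline synthesis, Cth of cysteine synthesis and the secreted factor Stc2 were lower, at -0.32, -0.35, -0.80 and -1.03. Cth was also lower under LVT/OLPEEP, at -0.82. Of 17 cytosolic aminoacyl-tRNA synthetases, Rars, Tars, Kars and Hars were higher between ventilation settings in BD, by 0.47, 0.46, 0.36 and 0.31, and 0 were lower (23.5%, beside 5.67% of all features), with a median difference of 0.19 beside -0.01. Under HVT/LPEEP Tars, Rars and Kars were higher in BD and Mars and Sars, at -0.34 each, lower.

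Of 17 genes of amino acid sensing by mTORC1, 6 were lower and 1 higher in BD under HVT/LPEEP (41.2%, beside 14.4% of all features), with a median difference of -0.11 beside -0.01. Folliculin, Flcn, was -0.46, Sesn1 -0.55 and Tsc2 -0.33, the kinase gene Mtor was -0.23, and Sesn3 was 0.31. Flcn was also the 1 gene of this list called between ventilation settings in BD, at -0.33. Of 10 regulators of transporter trafficking, 4 were lower and 0 higher in BD under HVT/LPEEP (40%, beside 14.4% of all features), with a median difference of -0.10 beside -0.01. The ubiquitin ligase Nedd4l was -0.56 under HVT/LPEEP and -0.54 under LVT/OLPEEP in BD, and Rnf5 was -0.42 under HVT/LPEEP. Txnip, an arrestin, and Bsg, a chaperone of carriers, were lower in BD under HVT/LPEEP at -0.25 and -0.24 and lower between ventilation settings in BD at -0.49 and -0.21. In NBD and for the interaction 0 genes of these 7 lists were called, with 1 to 6 genes of a list under an unadjusted p of 0.05 in NBD and 2 to 5 for the interaction.

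**Figure D5:**
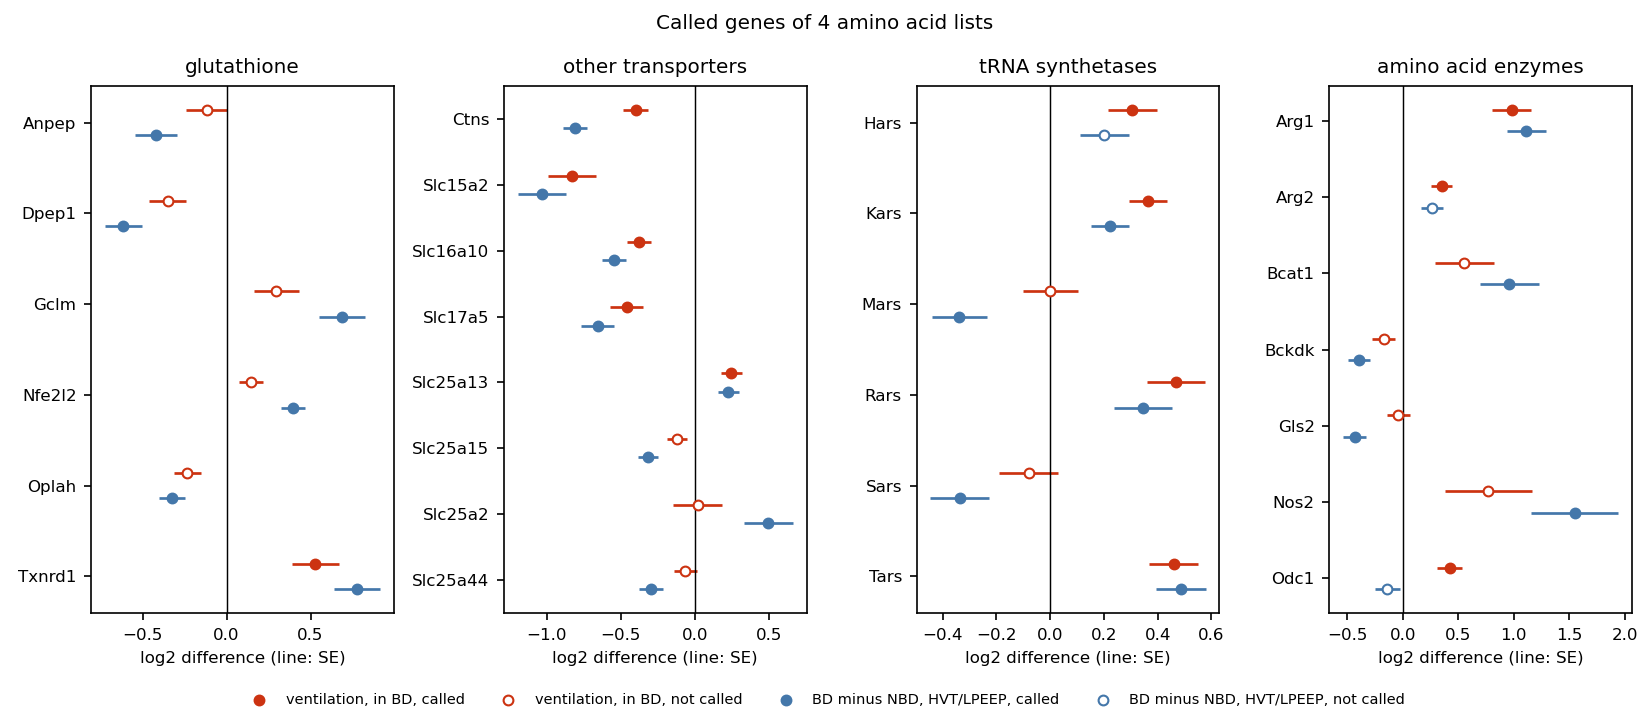
Differences on the log2 scale with their SE for the genes called in 4 of the lists, for HVT/LPEEP minus LVT/OLPEEP in BD and for BD minus NBD under HVT/LPEEP. Txnrd1, Gclm and Nfe2l2 lie above 0 and Ctns, Slc15a2, Slc17a5 and Slc16a10 below 0 in both comparisons, which share the BD HVT/LPEEP rats.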

How the data were processed

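Lung RNA of 24 rats was measured on Affymetrix arrays, 1 per rat, and groups came from the labels. The authors deposited log2 values of 19239 features in 1 table. Tools and settings of background correction and summarisation, not given in the sources used here, can shift the level of dim features. Sorted by size, every array held the same values, which quantile normalization by the authors leaves, and nothing further was done to them. Symbols came from the platform annotation, which can be old. Scanner files were not used here, so the number of arrays limits the precision and signal over background is unknown.

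In R 4.3.3, limma 3.58.1 was fitted with 4 group means to all features (20 residual degrees of freedom), with 5 contrasts, two-sided tests and Benjamini-Hochberg adjustment at 0.05. The study's own test was an ANOVA from a log-linear mixed model, Holm-corrected, with terms it does not state. All called members were named, with group values for up to 8 called members per contrast and direction with the largest difference and for the smallest p of each family between ventilation settings. From each list up to 4 called genes with the smallest p were named per contrast, beside a few named for their role. The members, lists and tests were chosen with earlier results of these data known. Alternatives were median centring, a filter on dim features, only the 12 arrays compared, other variance settings, array weights, Holm's correction, a 1.5-fold minimum, the animal number as a covariate, and leaving out rats.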

Additional observations from a re-analysis of the deposited data

Results flagged for a closer look

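Of 76 groups of 6 values, those of the 19 called members, 7 held a rat set apart from the other 5 beyond Dixon's 95% limit, where chance sets apart about 1 in 20 groups. Of these 7, 4 were NBD HVT/LPEEP rat 12. This rat measured 11.72 for Slc6a6 (nearest value 12.09), 9.97 for Slc7a4 (nearest 9.62), 10.38 for Slc7a10 (nearest 9.95) and 9.49 for Slc43a1 (nearest 8.98). NBD HVT/LPEEP rat 33 measured 8.80 for Slc6a16 (nearest 8.51). BD LVT/OLPEEP rat 9 measured 8.40 for Slc1a7 (nearest 8.20), and BD LVT/OLPEEP rat 16 measured 9.80 for Slc6a20 (nearest 10.18).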

How the results depend on the processing

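Results were recomputed under the alternatives. None of the 79 member differences with an unadjusted p under 0.05 reversed its sign, and other members were not checked for this. Alternatives that change only the correction, the threshold or the variance setting cannot change a difference. With Holm's correction the members called numbered 0 between ventilation settings in BD, 3 between BD and NBD under HVT/LPEEP (Slc43a3, Slc6a9 and Slc7a11) and 0 under LVT/OLPEEP, against 6, 17 and 2. With a minimum of 1.5-fold they numbered 3, 4 and 1, and at an unadjusted p under 0.05 they numbered 19, 27 and 14, with 7 for ventilation in NBD and 12 for the interaction. All features called numbered 30, 180 and 17 with Holm's correction and 263, 563 and 42 with the 1.5-fold minimum, against 1091, 2771 and 142. At the unadjusted threshold they numbered 4040, 5340, 2230, 3127 and 2629. With the animal number as a covariate 14 were called for ventilation in BD and 1, Slc7a11, for the interaction. All features called then rose from 1091 to 2122 and from 2 to 149. Under LVT/OLPEEP the count was 1 without the 40% dimmest features, 1 with eBayes trend and robust, 1 without rats 12 and 16, and 7 with array weights. All features called in those 4 fits numbered 122, 87, 157 and 608, against 142. With 1 rat left out the counts ran from 2 to 11 for ventilation in BD, 0 to 0 in NBD, 11 to 18 for brain damage under HVT/LPEEP, 1 to 3 under LVT/OLPEEP (1 without any 1 of NBD LVT/OLPEEP rats 6, 27 and 30 and BD LVT/OLPEEP rats 9, 14, 16 and 20) and 0 to 2 for the interaction. With any pair of BD HVT/LPEEP rats left out, since 2 of these rats did not survive, the counts were 0, 1, 2, 3, 5, 7 or 8 for ventilation in BD, 7, 8, 9, 10, 11, 12, 13 or 14 under HVT/LPEEP, 1, 2 or 3 under LVT/OLPEEP and 0, 1, 2 or 3 for the interaction. The other counts stayed within 1.5 times. The cause of these shifts was not tested, beyond the fewer rats. For the 79 single differences with an unadjusted p under 0.05, 3468 values under alternatives kept their side of the threshold. The call was lost in 325 and gained in 132. At the unadjusted threshold every uncalled difference of the 79 gains the call by construction. Holm's correction and the 1.5-fold minimum can only remove calls. No paired analysis was possible because the groups share no animal numbers.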
